A study of Mus musculus with 12 samples.

Results

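The 9 genes described here encode transcription factors of the limb and craniofacial mesenchyme: Alx1, Alx4, Prrx1, Prrx2, Twist1, Tbx5, Tbx15, Msx1 and Pitx1. They are 9 of the 24100 genes in the count table, and all 9 were among the 14263 genes with enough reads to be tested. They were named with earlier results of these data known, and Alx1 was selected on its measured rise in RTF2-deficient cells of both lines, so its genotype values are given as a description, without a test. RNA was sequenced from mouse embryonic fibroblasts (MEFs), the mesenchymal cells that grow out of mid-gestation embryos, to look for transcriptional changes after loss of RTF2, a protein of the replisome. WT MEFs were Rtf2+/+ and RTF2-deficient MEFs were Rtf2-/lox, from embryos of the same litter. MEFs of both genotypes were SV40-immortalized and received Hit & Run Cre from a retrovirus 72 hrs before harvest, so the WT cells carry the T antigen and saw Cre as well. MEF lines 1 and 2 came from different mothers, and each line and genotype had 3 libraries, described in the study as technical replicates. There are 4 groups and 12 libraries in all, and with 1 set of cells in each group, the embryo, the culture and the group cannot be told apart. P-values therefore measure the spread between these libraries and not the spread between embryos.

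Rtf2 fell in every RTF2-deficient library, from 44.8 to 57.8 counts per 1000000 (CPM, scaled by the TMM method) in the 6 WT libraries to between 5.44 and 6.66 CPM. Library totals lay between 39360167 and 44695002 counts. Xist, the RNA of the inactive X chromosome, lay between 103 and 173 CPM in 3 groups and at most at 0.132 CPM in WT line 2. Ddx3y, a gene of the Y chromosome, lay between 91.8 and 107 CPM in WT line 2 and at most at 0.195 CPM elsewhere. Any comparison with WT line 2 thus also compares cells that differ in these sex-linked genes, and their part in a result cannot be told apart from that of line or genotype. The fibroblast label was borne out by Col1a1, at group means between 5690 and 7600 CPM, and all 7 fibroblast markers were detected in every group. Col2a1, the collagen of cartilage, was also high, at 1800 CPM in WT line 1, 2060 CPM in RTF2-deficient line 1, 785 CPM in WT line 2 and 966 CPM in RTF2-deficient line 2. Markers that define endothelial cells (Pecam1, Cdh5), macrophages (Ptprc, Adgre1) and Schwann cells (Sox10) stayed at group means of 0.178 CPM or less. Of the myoblast factors, Myod1 reached 1.13 CPM in WT line 1, where its libraries held 122, 8 and 12 counts, and Myog reached 0.223 CPM there. Other genes of those lists were detected, at group means of 7.58 to 12.7 CPM for Kdr, 3.59 to 8.56 CPM for Tek, 0.891 to 1.51 CPM for Csf1r, 1.66 to 6.72 CPM for Cd68 and 4.3 to 15.5 CPM for Des. Of 23 markers tested, 2 passed for genotype over both lines, both higher, beside 13.2% of all genes tested. They were Kdr (1.49-fold, adjusted p = 0.0492) and the epithelial keratin Krt18 (1.67-fold, adjusted p = 0.0381). In line 2 only Cd68 of the 23 passed, with a 2.09-fold fall (adjusted p = 0.00809), beside 12.5% of all genes tested. The part of these markers in the genotype results was not tested.

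Transcription factors of these families lay out the skeleton of the face and the limbs in the embryo. Aristaless-like homeodomain proteins (Alx1, Alx4) act in the neural crest mesenchyme of the face, with Alx4 also acting at the anterior margin of the limb bud, and the paired-related proteins Prrx1 and Prrx2 are broad markers of limb and head mesenchyme. Twist1, a basic helix-loop-helix factor, keeps mesenchyme in its state, and Msx1 is a homeodomain repressor downstream of BMP signals. Tbx5 starts the forelimb bud and Pitx1 specifies the hindlimb, whereas Tbx15 patterns the shoulder and the skin of the trunk. Cultured embryonic fibroblasts are known to keep part of such positional programs. In bulk RNA, fewer cells of a type and less RNA per cell cannot be told apart.

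Of the 9 members, Prrx1, Prrx2, Twist1 and Msx1 had an entry in the RefSeq promoter table of GRCm38.p6. Sequences are shown for Msx1, the member whose genotype effect differed between the lines, and for Twist1, which fell in RTF2-deficient line 2. In both, the 250 bases before the start site overlap no GENCODE M21 exon. The windows of Prrx1 and Prrx2 overlap annotated exons of their own genes by 60 and 250 bases and are not shown. Both strands were searched for the homeodomain core TAATTA, the E-box CATCTG and the T-box half-site AGGTGT, and matches are in capitals in the sequences of Msx1 (chr5:37824586-37824835, minus strand) and Twist1 (chr12:33957421-33957670, plus strand), each written 5′ to 3′ on the strand of the gene.
Msx1: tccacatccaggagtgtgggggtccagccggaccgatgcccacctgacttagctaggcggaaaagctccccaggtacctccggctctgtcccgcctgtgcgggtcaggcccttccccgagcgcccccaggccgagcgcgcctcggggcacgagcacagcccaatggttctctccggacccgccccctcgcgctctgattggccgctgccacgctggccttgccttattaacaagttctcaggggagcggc
Twist1: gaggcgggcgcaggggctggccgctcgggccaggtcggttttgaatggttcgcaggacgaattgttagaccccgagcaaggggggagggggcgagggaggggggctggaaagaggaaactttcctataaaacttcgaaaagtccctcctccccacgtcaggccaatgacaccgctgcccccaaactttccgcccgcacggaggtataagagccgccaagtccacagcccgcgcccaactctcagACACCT
Msx1 held none of the 3 motifs in this window. Twist1 held 1 match, a T-box half-site read on the other strand, directly before the start site. Among all 32851 promoter windows of this length, 4.84% held the homeodomain core, 14.4% the E-box and 11.8% the T-box half-site. GC content was 68.0% for Msx1 and 62.4% for Twist1, beside a median of 52.4% over all windows.

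The members fell into a high and a low set. Per kilobase of merged exons, the means over all 12 libraries were 43.3 CPM for Prrx2, 36.7 CPM for Tbx15, 23.2 CPM for Twist1 and 22.5 CPM for Prrx1. Far below came Pitx1 at 1.14, Tbx5 at 1.06, Msx1 at 0.46, Alx4 at 0.448 and Alx1 at 0.176 CPM per kilobase. Neighbours in this order often overlapped. Prrx2 and Tbx15 overlapped in 3 of the 4 groups, all but WT line 2, and Twist1 and Prrx1 overlapped in both WT groups. Tbx5 and Pitx1 overlapped in WT line 2 (2.94 ± 0.528 and 2.57 ± 0.39 CPM per kilobase, SD, n = 3). In RTF2-deficient line 2 Pitx1 lay above Tbx5 with no overlap, at 1.92 against 1.03 CPM per kilobase. Taken per longest transcript, Prrx1 and Twist1 changed places, as did Tbx5 and Pitx1, and the other 5 members kept their rank.

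**Figure D1:**
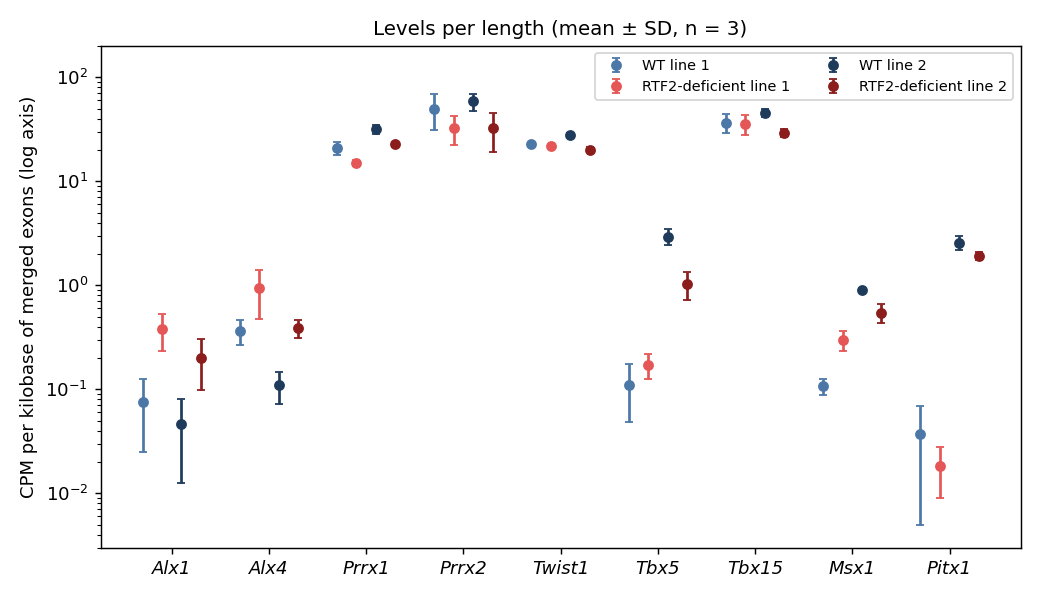
Levels of the 9 members in CPM per kilobase of merged exons on a log axis, as group means with SD over 3 libraries, coloured by genotype and line. Prrx1, Prrx2, Twist1 and Tbx15 lay at 15 or more in every group, whereas the other 5 stayed at 2.94 or less.

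The comparison of genotypes asks which transcripts differ between RTF2-deficient and WT cells. Over both lines, 3 of the 8 members other than Alx1 passed the test for genotype (edgeR's quasi-likelihood test with a term for line, Benjamini-Hochberg adjusted p under 0.05), 1 higher and 2 lower, beside 13.2% of all genes tested (4.98% higher and 8.18% lower). Alx4 was higher in RTF2-deficient cells, and Prrx1 and Twist1 were lower. Only Alx4 went beyond a log2 fold change of 1, as did 1.72% of all genes tested. In size, 5 of the 8 were lower in both lines, Alx4 was higher in both, and Tbx5 and Msx1 had opposite signs. The median log2 fold change of the 8 was -0.41, against 0.002 for all genes. Prrx2 (-0.74, adjusted p = 0.0519), Tbx15 (-0.34, adjusted p = 0.143), Tbx5 (-0.65, adjusted p = 0.313), Pitx1 (-0.51, adjusted p = 0.3) and Msx1 (0.24, adjusted p = 0.701) did not pass. With the 3 libraries of each group summed, so that only the 2 lines act as replicates, 0 of the 8 passed, with adjusted p of 0.117 for Prrx1, 0.126 for Alx4 and 0.337 for Twist1. With no term for line, Alx4 (adjusted p = 0.0943) and Prrx1 (adjusted p = 0.142) did not pass. A voom fit that took the group as a random block also called Prrx2 (adjusted p = 0.00969) and Tbx5 (adjusted p = 0.0103), and Tbx15 passed without library 1 of RTF2-deficient line 1 (adjusted p = 0.0275).

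**Figure D2:**
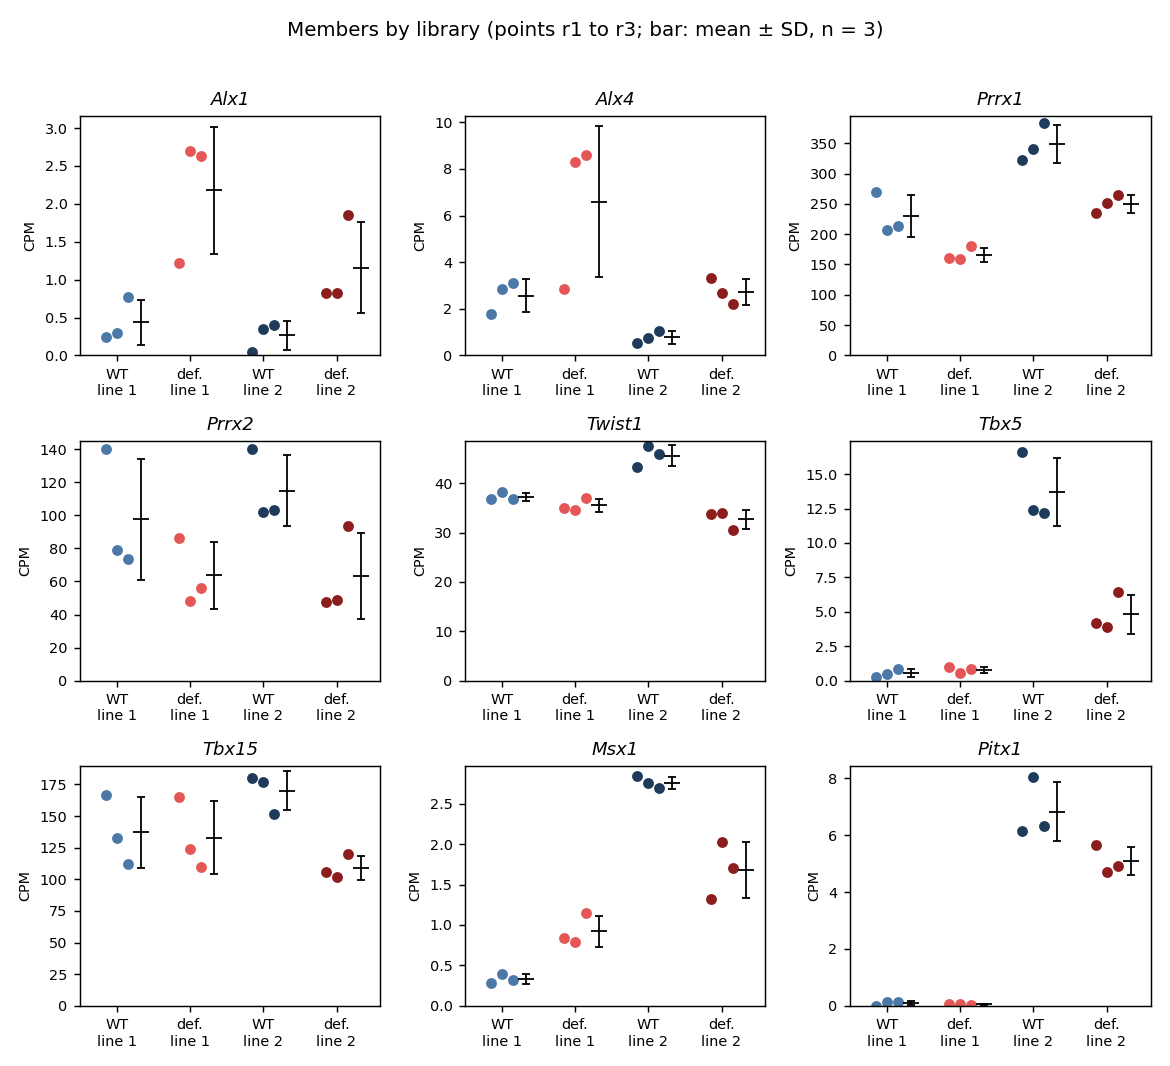
CPM of each member in all 12 libraries, with the mean and SD of each group of 3 beside its points (def., RTF2-deficient). Alx1 lay between 0.818 and 2.7 CPM in the RTF2-deficient libraries and between 0.0434 and 0.772 CPM in WT, and Tbx5, Msx1 and Pitx1 were highest in WT line 2.

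Alx1 (chromosome 10, 103007847 to 103029549, GRCm38) is required for the frontonasal skeleton and had the lowest level of the 9 as a mean over all 12 libraries. Per kilobase it lay above Pitx1 in WT line 1 (0.0758 against 0.0368 CPM), and above Pitx1 (0.0183), Tbx5 (0.171) and Msx1 (0.298) in RTF2-deficient line 1 (0.379 CPM). Its libraries overlapped those of Pitx1 in WT line 1 and those of Msx1 in RTF2-deficient line 1. In WT line 1 its libraries held 10, 12 and 32 counts (0.239, 0.297 and 0.772 CPM), and in RTF2-deficient line 1 they held 51, 110 and 108 counts (1.22, 2.70 and 2.63 CPM). In WT line 2 they held 2, 16 and 17 counts (0.0434, 0.353 and 0.401 CPM), and in RTF2-deficient line 2 they held 34, 32 and 82 counts (0.818, 0.821 and 1.85 CPM). Every RTF2-deficient library lay above every WT library, in each line and over both. As a description of a gene picked for this rise, the log2 fold change was 2.31 ± 0.639 (SE) in line 1 and 2.13 ± 0.673 in line 2. Leaving out single libraries gave a rise between 2.03 and 3.01 in line 1 and between 1.63 and 2.55 in line 2. The value of 3.01 came without library 3 of WT line 1, the WT library with the most Alx1. With a filter of 1 CPM in 6 libraries Alx1 was too low to be tested at all.

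Alx4 (chromosome 2, 93642434 to 93681341) is a gene whose loss causes extra preaxial digits in mice. Its levels were the most correlated with those of Alx1 among the members, which includes the rise that Alx1 was picked for. Its CPM values were 1.77, 2.85 and 3.09 in WT line 1 against 2.87, 8.29 and 8.61 in RTF2-deficient line 1. In line 2 they were 0.521, 0.75 and 1.04 in WT against 3.32, 2.67 and 2.22 in RTF2-deficient cells. The groups overlapped in line 1 by library 1 of the RTF2-deficient cells and stood apart in line 2. Over both lines Alx4 rose 2.98-fold (log2 fold change 1.58 ± 0.288, SE, adjusted p = 0.00389). Within line 2 it rose 3.55-fold (1.83 ± 0.426, adjusted p = 0.0174), and within line 1 the log2 fold change was 1.36 ± 0.396 with an adjusted p of 0.107. Without library 1 of RTF2-deficient line 1 the effect in line 1 passed (log2 fold change 1.72, adjusted p = 0.0186), as it did with DESeq2 (0.0164). In line 2 it missed the threshold without library 1 or 2 of either genotype (adjusted p between 0.054 and 0.065). It also missed with a term for the interferon score, the median log2 CPM of 15 interferon-stimulated genes (log2 fold change 1.42, adjusted p = 0.0529). In line 2 that score lay between 5.18 and 8.8 in WT and between 2.75 and 7.58 in RTF2-deficient cells. Its term thus shares part of the genotype contrast. A fit of line 1 alone with the library number as a block, the number pairing the samples there, also called the rise in line 1 (log2 fold change 1.30, adjusted p = 0.000851). That fit, added after seeing the data, called 29.1% of all genes tested in it, against 3.2% in the main fit of line 1.

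Prrx1 (chromosome 1, 163245119 to 163315145), a homeobox gene of limb and head mesenchyme, had the most counts in each group. In library 1 of RTF2-deficient line 1 Tbx15 had more, with 6914 counts against 6705. It lay at 269, 207 and 213 CPM in WT line 1 and at 160, 159 and 180 CPM in RTF2-deficient line 1. In line 2 it lay at 322, 341 and 384 CPM in WT and at 235, 252 and 264 CPM in RTF2-deficient cells. Within each line the RTF2-deficient libraries lay below the WT libraries with no overlap. Prrx1 fell by 0.47 on the log2 scale over both lines (SE 0.0747, adjusted p = 0.00151), by 0.47 in line 1 (adjusted p = 0.0473) and by 0.48 in line 2 (adjusted p = 0.0166). The call in line 1 rested close to the threshold: 16 of its 21 alternatives ended it, with adjusted p up to 0.178, whereas line 1 alone with the block kept it (adjusted p = 0.00468). Leaving out any of the 6 libraries of line 1 ended it, with the log2 fold change between -0.54 and -0.33. In line 2 the call was lost without library 3 of WT or library 1 or 2 of RTF2-deficient cells (adjusted p between 0.07 and 0.0812).

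Prrx2 (chromosome 2, 30845064 to 30881251), the close relative of Prrx1, varied between sister libraries. In WT it lay at 140, 79.0 and 73.8 CPM in line 1 and at 140, 102 and 103 CPM in line 2. In RTF2-deficient cells it lay at 86.6, 48.3 and 56.1 CPM in line 1 and at 47.4, 48.8 and 93.7 CPM in line 2. In each of the 4 groups 1 library stood high, which was library 1 in 3 groups and library 3 in RTF2-deficient line 2. These 4 libraries were also those with the highest interferon score of their group: 4.47 in WT line 1, 8.80 in WT line 2, 2.65 in RTF2-deficient line 1 and 7.58 in RTF2-deficient line 2. Over both lines the log2 fold change of Prrx2 was -0.74 ± 0.227, which missed the threshold (adjusted p = 0.0519). With a term for that score it was -0.39 (adjusted p = 0.0885). The call passed without library 3 of WT line 1, library 1 of RTF2-deficient line 1 or library 3 of RTF2-deficient line 2 (adjusted p between 0.0247 and 0.0406) and with DESeq2 (0.00957). In line 1 alone with the block, a fit that called 29.1% of all genes tested in it, Prrx2 passed as well (log2 fold change -0.60, adjusted p = 0.000314). In the fit of 4 groups over all 12 libraries its adjusted p in line 1 was 0.469, and with the block over that layout it was 0.399. In line 2 its log2 fold change of -0.86 did not pass (adjusted p = 0.117), other than with DESeq2 (0.0459) or without library 3 of the RTF2-deficient cells (0.0264).

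Twist1 (chromosome 12, 33957671 to 33959831), which marks mesenchyme and is mutated in a human craniosynostosis syndrome, varied little between sister libraries. In line 1 it lay at 36.7, 38.2 and 36.8 CPM in WT and at 35.0, 34.6 and 37.0 CPM in RTF2-deficient cells, which overlapped. In line 2 it lay at 43.3, 47.6 and 46.0 CPM in WT and at 33.7, 34.0 and 30.5 CPM in RTF2-deficient cells, with no overlap. Twist1 fell by 0.48 on the log2 scale in line 2 (SE 0.0686, adjusted p = 0.00145), whereas the log2 fold change in line 1 was -0.07 (adjusted p = 0.771). The difference between the lines, tested as an interaction, was -0.41 ± 0.0969 with an adjusted p of 0.0828. It passed with DESeq2 (-0.41, adjusted p = 0.00444) and with the term for the interferon score (-0.45, adjusted p = 0.0174). Over both lines Twist1 fell by 0.27 (adjusted p = 0.034), and this call was lost without any single library of line 2 or without library 2 of RTF2-deficient line 1 (adjusted p between 0.0517 and 0.0881), and with no filter on low counts (0.0546). The fall in line 2 passed in all 20 alternatives run.

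Tbx15 (chromosome 3, 99240348 to 99354260), a T-box gene of the scapula and the trunk dermis, passed the genotype test in line 2 and not in line 1. In line 1 it lay at 167, 133 and 112 CPM in WT and at 165, 124 and 110 CPM in RTF2-deficient cells, nearly the same values library by library. In line 2 it lay at 180, 177 and 152 CPM in WT and at 106, 102 and 120 CPM in RTF2-deficient cells, with no overlap. Tbx15 fell by 0.63 on the log2 scale in line 2 (SE 0.168, adjusted p = 0.0319), and its log2 fold change in line 1 was -0.05 (adjusted p = 0.954). The interaction was -0.59 ± 0.236 with an adjusted p of 0.468, so a difference between the lines was not shown. In line 2 the call was lost without any of the 3 WT libraries or library 1 or 2 of RTF2-deficient cells (adjusted p between 0.0503 and 0.128). It was also lost with the term for the interferon score (log2 fold change -0.50, adjusted p = 0.0836).

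Tbx5 (chromosome 5, 119796514 to 119885220), the T-box gene of the forelimb and the heart, was low in line 1, at 0.239, 0.495 and 0.82 CPM in WT and 0.979, 0.564 and 0.853 CPM in RTF2-deficient cells. In line 2 it lay at 16.6, 12.4 and 12.2 CPM in WT and at 4.16, 3.87 and 6.46 CPM in RTF2-deficient cells. The line 1 groups overlapped, and the line 2 groups did not. Tbx5 fell 2.84-fold in line 2 (log2 fold change -1.5 ± 0.324, adjusted p = 0.0124), and its log2 fold change in line 1 was 0.62 ± 0.397 (adjusted p = 0.572). The interaction was -2.13 ± 0.51 with an adjusted p of 0.0901. It passed without library 3 of WT line 1 (-2.62, adjusted p = 0.0397), with DESeq2 (-2.13, adjusted p = 0.00123) and with the term for the interferon score (-1.99, adjusted p = 0.0499). The fall in line 2 was lost without library 1 or 2 of the RTF2-deficient cells (adjusted p of 0.0572 and 0.0653).

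Msx1 (chromosome 5, 37820491 to 37824585), whose promoter sequence is given with that of Twist1, was the 1 of the 8 members whose genotype effect differed between the lines by the interaction test, which 1.29% of all genes tested passed (0.757% with a higher and 0.533% with a lower effect in line 2). In line 1 its values were 0.287, 0.396 and 0.314 CPM in WT and 0.836, 0.785 and 1.15 CPM in RTF2-deficient cells. In line 2 they were 2.84, 2.76 and 2.69 CPM in WT and 1.32, 2.03 and 1.70 CPM in RTF2-deficient cells. Neither pair of groups overlapped, and the RTF2-deficient cells lay above WT in line 1 and below it in line 2. Msx1 rose 2.76-fold in line 1 (log2 fold change 1.47 ± 0.247, adjusted p = 0.0088). In line 2 the log2 fold change was -0.72 ± 0.214, just short of the threshold (adjusted p = 0.0509). It passed with DESeq2 (adjusted p = 0.0232), with a filter of 1 CPM in 6 libraries (0.0392) and without library 3 of RTF2-deficient line 1 (0.0474). The interaction, line 2 minus line 1, was -2.18 ± 0.327 (adjusted p = 0.0132) and passed in all 19 alternatives run, with values between -2.33 and -1.98. These effects rest on few reads, 41 counts over the 3 libraries of WT line 1 and 114 over those of RTF2-deficient line 1. Msx1os, an antisense RNA that overlaps Msx1 by 2188 bases, had at most 8 counts in a library, and whether reads were counted by strand is not given in the sources used here.

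Pitx1 (chromosome 13, 55825044 to 55836190), the homeobox gene of the hindlimb and the first branchial arch, was nearly without reads in line 1. The WT libraries held 0, 6 and 6 counts and the RTF2-deficient libraries 2, 3 and 1. In line 2 it lay at 6.15, 8.03 and 6.33 CPM in WT and at 5.65, 4.72 and 4.93 CPM in RTF2-deficient cells, which did not overlap. Its log2 fold change in line 2 was -0.42 ± 0.336, which did not pass (adjusted p = 0.454).

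Taken line by line, 2 of the 8 members other than Alx1 passed in line 1, Msx1 higher and Prrx1 lower, beside 3.2% of all genes tested (0.68% higher and 2.52% lower). With line 1 fitted alone and the library number as a block, 4 passed: Alx4 and Msx1 higher and Prrx1 and Prrx2 lower, beside 29.1% of all genes tested in that fit (14.4% higher and 14.7% lower). In line 2, 5 of the 8 passed, Alx4 higher and Prrx1, Twist1, Tbx5 and Tbx15 lower, beside 12.5% of all genes tested (5.42% higher and 7.03% lower). The count in line 2 fell to 1 without library 1 or without library 2 of RTF2-deficient line 2, and to 3 without any single library of WT line 2.

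**Figure D3:**
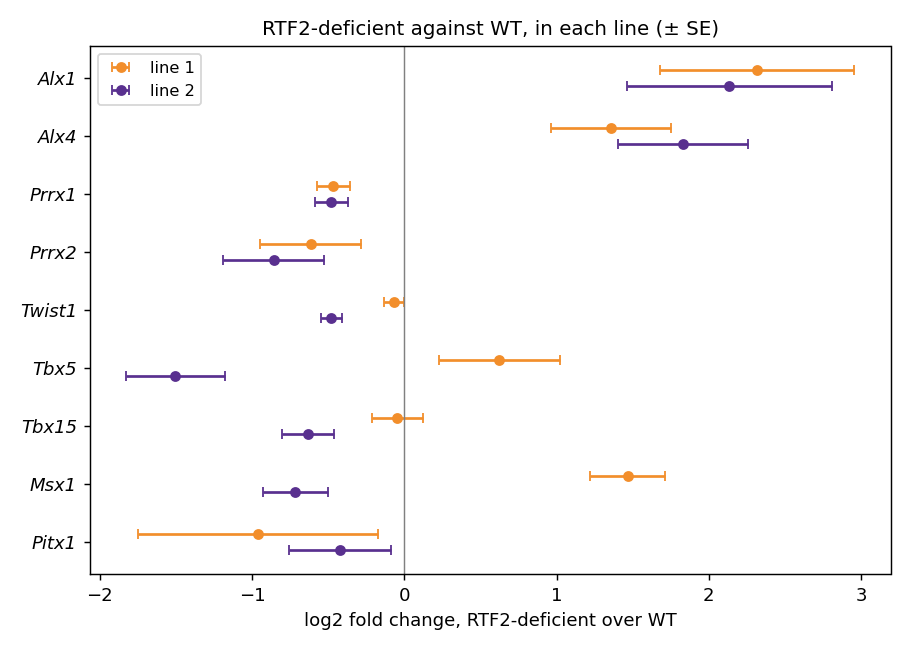
Log2 fold change of RTF2-deficient over WT for each member in line 1 and line 2, with the SE from the fit of 4 groups. Msx1 lay at 1.47 in line 1 and at -0.72 in line 2, whereas Prrx1 lay at -0.47 and -0.48.

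The second comparison of the design is between the lines, and Pitx1, Tbx5 and Msx1 were higher in line 2. In WT cells 6 of the 9 members passed the test of line 2 against line 1, 5 higher and 1 lower, beside 14% of all genes tested (6.7% higher and 7.31% lower). In RTF2-deficient cells 3 of the 9 passed, all higher, beside 1.94% of all genes tested (1.09% higher and 0.841% lower). Pitx1 had 12 counts in WT line 1 and 915 in WT line 2, a ratio of 70.5 after scaling (exact 95% interval from 40.2 to 137, which covers counting error only). In RTF2-deficient cells it had 6 and 637 counts, a ratio of 105 (48.1 to 288). Its fitted log2 differences, 6.09 ± 0.485 (adjusted p = 2.25e-05) and 6.63 ± 0.534 (adjusted p = 0.000115), rest on these few reads of line 1. No library of line 1 went above 0.149 CPM, so Pitx1 passed the filter on low counts only through line 2. Its calls, counted among those above, carry that selection. No library of line 2 overlapped one of line 1.

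Tbx5 was 26.4-fold higher in line 2 in WT cells (log2 difference 4.72 ± 0.39, adjusted p = 2.78e-05) and 6.03-fold higher in RTF2-deficient cells (2.59 ± 0.36, adjusted p = 0.00391). For Msx1 the difference was 8.27-fold in WT (3.05 ± 0.244, adjusted p = 2.28e-05). In RTF2-deficient cells it was 1.82-fold (0.86 ± 0.222) and did not pass (adjusted p = 0.0848), although the libraries did not overlap and DESeq2 called it (adjusted p = 0.0307). Prrx1 was higher in line 2 by much the same amount in both genotypes, at 0.60 ± 0.11 in WT (adjusted p = 0.00422) and 0.59 ± 0.11 in RTF2-deficient cells (adjusted p = 0.021). Its call in RTF2-deficient cells was lost without any one of the 3 line 2 libraries or library 1 or 2 of line 1 (adjusted p between 0.0511 and 0.104). Twist1 was higher in WT line 2 by 0.29 ± 0.0684 (adjusted p = 0.0154), a call lost without any library of WT line 1 or library 3 of WT line 2 (adjusted p between 0.0566 and 0.0748), with no filter on low counts (0.0563) and with WT fitted alone (0.0745).

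Alx4 ran the other way and was 3.33-fold lower in line 2 in WT cells (log2 difference -1.74 ± 0.426, adjusted p = 0.02). This call was lost without library 2 or 3 of WT line 1 or library 1 or 2 of WT line 2 (adjusted p between 0.0503 and 0.0738). It was also lost with the term for the interferon score (-1.04, adjusted p = 0.202). That score lay between 1.34 and 4.47 in WT line 1 and between 5.18 and 8.8 in WT line 2. Its term thus cannot be cleanly told apart from line there. In RTF2-deficient cells the log2 difference of Alx4 was -1.27 ± 0.395 (adjusted p = 0.165). Without library 1 of RTF2-deficient line 1 it passed (-1.63, adjusted p = 0.0314), as it did with DESeq2 (adjusted p = 0.0369). Alx1 was not called in either genotype, with log2 differences of -0.72 ± 0.708 in WT (adjusted p = 0.559) and -0.90 ± 0.591 in RTF2-deficient cells (adjusted p = 0.584). Prrx2 and Tbx15 did not pass either, with log2 differences between -0.28 and 0.30. Cell type markers moved with line too, and of the 23 tested 3 were higher and 8 lower in WT line 2. Of all genes tested, 6.7% were higher and 7.31% lower there. Higher were Krt18 (3.84-fold, adjusted p = 0.00213), Krt8 and the macrophage marker Cd68 (4.04-fold, adjusted p = 0.000159). Lower were the neural marker Tubb3 (3.35-fold, adjusted p = 0.00144), the myogenic marker Myod1, and Pdgfrb, Thy1 and Col1a2 of the 7 fibroblast markers. The other 3 were chondrocyte markers, of 4 in all, with a summed level between 768 and 903 CPM there against 1620 to 2350 CPM in WT line 1. In RTF2-deficient cells 2 markers were higher in line 2 (Krt18 and Des) and 2 lower (Col2a1 and Acan), beside 1.94% of all genes tested. The part of these markers in the differences between the lines was not tested.

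**Figure D4:**
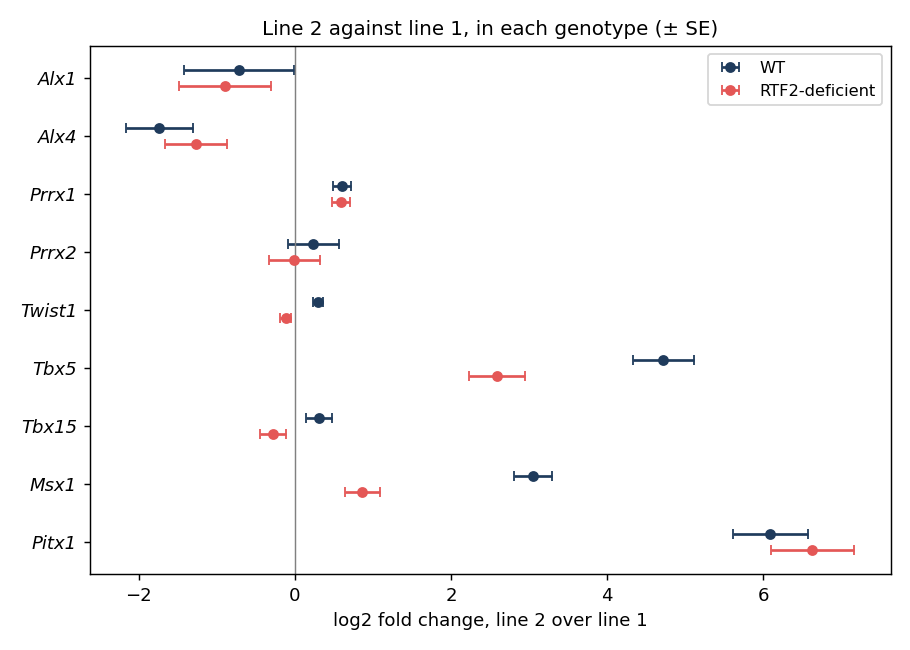
Log2 difference of line 2 over line 1 for each member, in WT and in RTF2-deficient cells, with the SE from the fit of 4 groups. Pitx1, Tbx5 and Msx1 lay to the right of 0 in both genotypes, and Alx4 and Alx1 lay to the left.

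Among the members, the highest correlations lay in 3 sets, as a description over the 12 libraries, which share their 4 groups. Alx1 and Alx4 had a Pearson r of 0.839 for log2 CPM. Tbx5, Pitx1 and Msx1 had r of 0.942 (Tbx5 and Pitx1), 0.92 (Tbx5 and Msx1) and 0.832 (Msx1 and Pitx1). With the group means taken off, these came to 0.602 for the Alx pair and to 0.563, 0.235 and 0.066 for the 3 others. Prrx2 and Tbx15, the third set, kept theirs, at 0.843 over all libraries and 0.808 within groups. Alx4 ran against both within groups, with r of -0.811 for Prrx2 and -0.885 for Tbx15. Outside these sets, Prrx1 had r of 0.741 with Tbx5 and with Pitx1 over all libraries. Within groups these came to -0.47 and -0.824. The members share no run of 75 bases or more, the length of a read: the longest run that any pair of their transcripts shares is 41 bases, between Alx4 and Tbx5.

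**Figure D5:**
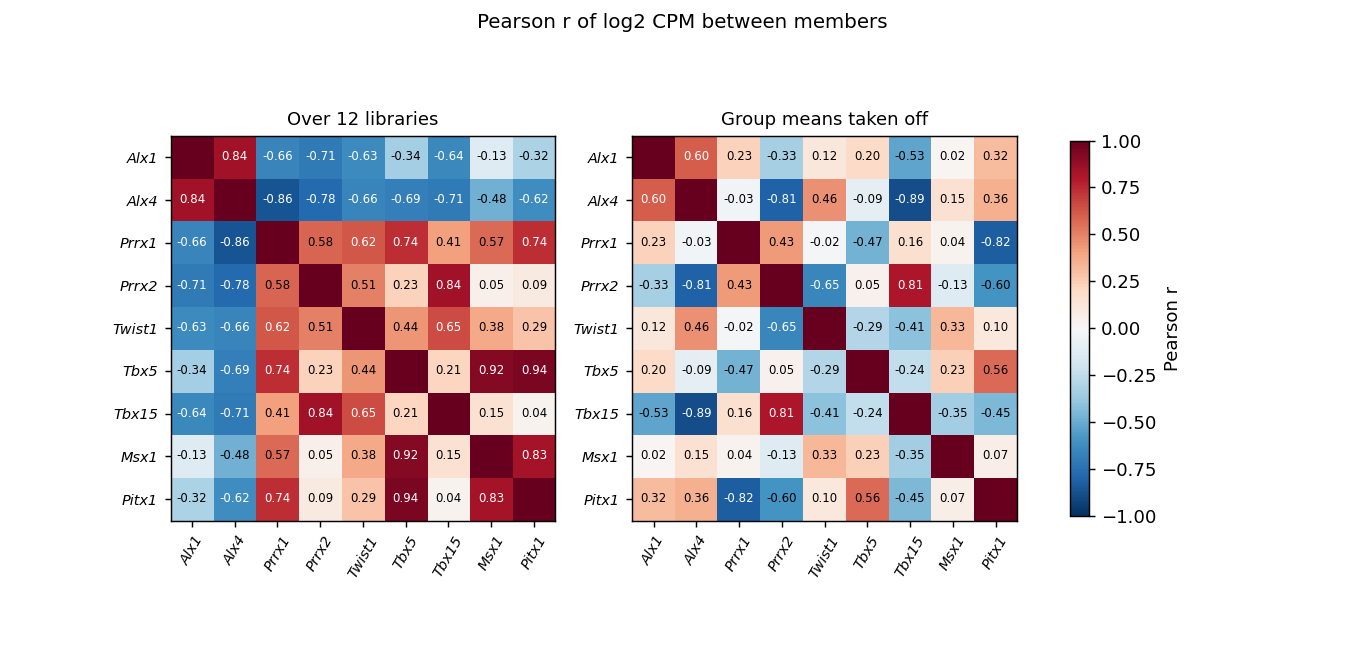
Pearson r of log2 CPM between each pair of members, over the 12 libraries (left) and with each group's mean taken off (right), with red for positive and blue for negative values. Alx1 and Alx4 stood against most other members on the left, and Prrx2 and Tbx15 stayed together on the right.

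Over the 12 libraries the 5 genes whose log2 CPM followed Alx1 most closely, among 12239 others of at least 1 CPM on average, were H2bc21, Prx, Ppwd1, Pank4 and Rheb. Their r lay between 0.874 and 0.912. Alx4 ranked 37, but 286 by Spearman correlation and 917 with the group means taken off. Since Alx1 was picked for its genotype difference, this likeness includes that difference, and 0 of the 5 stayed among the closest 5 with the group means taken off. H2bc21, a histone gene, lay at 2.77 CPM in WT line 1 against 4.13 CPM in RTF2-deficient line 1, and at 2.22 against 3.91 CPM in line 2. The tested genes nearest to Alx1 on chromosome 10 were Slc6a15, 338 kb away, and 4930430F08Rik, 2420 kb away. Their log2 fold changes over both lines were 0.83 ± 0.402 (adjusted p = 0.2) and -0.01 ± 0.0655 (adjusted p = 0.908), and neither passed.

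Other patterning genes, in 4 lists chosen with earlier results of these data known, give the surroundings of the members. Of 95 listed genes 80 were tested, and the 15 others had group means of at most 0.317 CPM. For genotype over both lines 8 of the 80 passed, 7 higher and 1 lower, or 10% beside the 13.2% of all genes. Zic1, a zinc finger gene of the dorsal trunk, rose 1.83-fold (adjusted p = 0.000709) and its genomic neighbour Zic4 rose 2.06-fold (adjusted p = 0.00313). Osr2, a gene of the palate, fell by 2.66 on the log2 scale (adjusted p = 0.00883) from low levels. None of the 21 tested Hedgehog and FGF signalling genes passed for genotype over both lines with edgeR, with 0 at an unadjusted p under 0.05 and 0 with DESeq2. Within line 1 the counts were 0 with edgeR, 1 unadjusted and 0 with DESeq2, and within line 2 they were 0, 3 and 1. In line 1, 5 of the 80 passed, all higher, beside 3.2% of all genes tested (0.68% higher). Among them were Tfap2b (log2 fold change 4.38, adjusted p = 0.00194) and Pax3 (2.95, adjusted p = 0.0016), both genes of the neural crest. With line 1 fitted alone and the block, 22 listed genes rose and 6 fell, beside 14.4% of all genes higher and 14.7% lower in that fit. In line 2, 14 of the 80 rose and 5 fell, beside 12.5% of all genes tested (5.42% higher and 7.03% lower), and Tbx4, a hindlimb gene, fell by 0.78 (adjusted p = 0.00731).

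The same lists were compared between the lines. In WT cells 42 of the 80 passed, 21 in each direction, beside 14% of all genes tested. In RTF2-deficient cells 18 passed, 7 higher and 11 lower in line 2, beside 1.94% of all genes tested. Tbx4, which acts downstream of Pitx1, lay at 0.145 CPM in WT line 1 and 15.1 CPM in WT line 2, and at 0.243 and 8.80 CPM in RTF2-deficient cells (adjusted p = 3.51e-08 and 4.86e-07). Lmx1b, the dorsal limb gene, had 1 count in the 3 libraries of WT line 1 and lay at 1.44 CPM in WT line 2. Hand2, a gene of the posterior limb bud and the mandible, lay at 0.146 CPM in WT line 1 and at 3.98 CPM in WT line 2 (adjusted p = 0.000254). Wt1 had 0 counts in WT line 1 and 56 in WT line 2, at least 17.3-fold higher against 3 counts over the group. Lmx1b and Wt1 passed the filter on low counts only through line 2, as Pitx1 did. Zic1 and Zic4 were lower in line 2, as Alx4 was, by 1.89 and 1.84 on the log2 scale in WT (adjusted p = 6.64e-05 and 0.00119).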

How the data were processed

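RNA of 2 MEF lines, WT or RTF2-deficient, was sequenced as 75-base single reads with 3 technical replicates per group. Values are raw counts, deposited by the authors without normalization and listed by Entrez Gene number. Their methods name Salmon on UCSC mm10 gene models with tximport, whereas HTSeq and mm10 stand in the submitters' processing notes; neither strand use nor poly(A) selection is stated there. Symbols and positions came from RefSeq (GRCm38.p6), which held 24045 of 24100 identifiers, and lengths from GENCODE M21. With 39360167 counts in the shallowest library, a count of 0 allows up to 3 counts, or 0.0762 CPM, as far as counting error goes.

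Genes passing filterByExpr were scaled by TMM and tested with edgeR 4.0.16 (glmQLFit, glmQLFTest, R 4.3.3) over all 12 libraries, with terms for line and genotype or in a layout of the 4 groups, and p-values were adjusted over all genes tested. Standard errors were taken as the unshrunken coefficient over the root of F. Log2 CPM used a prior count of 2. The fits were tested on simulated data. The members, lists (33 craniofacial, 23 limb, 15 trunk and somite, 24 Hedgehog and FGF genes), markers and the 15 interferon-stimulated genes were chosen with earlier results of these data known. The result of 1 listed gene is counted but not reported here. Named genes were the members, Rtf2, up to 3 passing genes per list, comparison and direction with the largest changes, the 5 genes most like Alx1, its tested neighbours, overlapping genes, markers, Xist and Ddx3y.

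Library numbers, which come from the sample titles, paired the samples within line 1 and within WT. Correlations of same-numbered deviations from the group means were 0.75, 0.653 and 0.66 within line 1 and 0.513, 0.528 and 0.397 within WT. Same numbers did not pair them within line 2 (-0.71, 0.21 and -0.363) or RTF2-deficient cells (-0.485, 0.103 and -0.389). Other numbers matched there. Libraries 1, 2 and 3 of WT line 2 went with libraries 3, 1 and 2 of RTF2-deficient line 2 (0.732, 0.755 and 0.549). The same shift held between RTF2-deficient lines 1 and 2 (0.599, 0.562 and 0.535). No block by this shifted match was fitted. Alternatives were RLE and upper-quartile scaling, no filter, a minimum of 1 CPM in 6 libraries, DESeq2 1.42.0, a replicate block, no line term, summed triplicates, voom (limma 3.58.1) with the group as a random block, each line or genotype alone and each library left out. The block within line 1 or WT alone and the term for the interferon score were added after seeing the data. That score differed between the groups. It ranged from 1.26 to 2.65 in RTF2-deficient line 1 and from 1.34 to 4.47 in WT line 1. In line 2 it ranged from 2.75 to 7.58 in RTF2-deficient cells and from 5.18 to 8.8 in WT. Fits with its term are therefore not free of line and genotype.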

Additional observations from a re-analysis of the deposited data

Results flagged for a closer look

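The genotype effect differed between the 2 lines for 9 of the 88 tested genes among the members without Alx1 and the 4 lists, by edgeR's interaction test (line 2 minus line 1, adjusted p under 0.05, 1.29% of all genes tested), and 8 of the 9 are given here. Msx1 was the 1 member, at -2.18 on the log2 scale. Among craniofacial factors the difference was -3.67 for Pax3, -5.37 for Tfap2b and -0.87 for Eya1. Among limb factors it was -1.5 for Tbx4, -2.0 for Sall1, 0.84 for Meis1 and 0.85 for Irx5. Tfap2b had 9 counts in the 3 libraries of WT line 1 and 194 in those of RTF2-deficient line 1, and Pax3 had 52 and 404. WT line 2 also differs from the 3 other groups in Xist and Ddx3y, so a sex-linked difference between its cells and theirs cannot be told apart from the interaction.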

How the results depend on the processing

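Of the members' called effects, the rise of Msx1 in line 1 and its interaction, the fall of Twist1 in line 2, and the higher Pitx1 and Tbx5 of line 2 in both genotypes and higher Msx1 and Prrx1 of WT line 2 passed in every alternative run. Low counts limit Alx1, Msx1 in line 1 and Pitx1 in line 1. The causes of the changes below were not tested, other than that summed triplicates leave 4 samples.

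For genotype over both lines (3 members, 7 listed genes higher and 1 lower), leaving out the line term gave 1 member, 2 higher and 0 lower, and summed triplicates gave 0, 0 and 0. Voom gave 5 members and 3 listed genes lower, a filter of 1 CPM gave 0 lower and the interferon term gave 2 lower. Msx1, not called, changed sign without the line term (-0.25) and with voom (-0.10). In line 1 (2 members, 5 higher, 0 lower), RLE, upper-quartile scaling, no filter, the replicate block and line 1 alone each gave 1 member. The 1 CPM filter gave 3 higher, DESeq2 gave 1 lower, the replicate block gave 1 lower, and the interferon term gave 9 higher and 1 lower. Line 1 alone with the replicate block gave 4 members, 22 higher and 6 lower. Tbx15, not called, came to 0.0157 with the interferon term. In line 2 (5 members, 14 higher, 5 lower), line 2 alone gave 9 higher and the interferon term gave 3 members.

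For the interaction (1 member, 3 higher, 5 lower), DESeq2 gave 3 members, 9 higher and 8 lower, and the interferon term gave 3, 8 and 8. The 1 CPM filter gave 3 lower, the replicate block gave 1 higher, and Prrx1, not called, came to 0.0227 with the interferon term. Between the lines in WT (6 members, 21 higher, 21 lower), the 1 CPM filter gave 12 higher, and Prrx2, not called, came to -0.61 with the interferon term. In RTF2-deficient cells (3 members, 7 higher, 11 lower), the 1 CPM filter gave 4 higher, and DESeq2 gave 5 members and 11 higher. There the replicate block gave 7 lower, RTF2-deficient cells alone gave 4 lower and the interferon term gave 21 lower. Prrx2, not called, came to 0.0107 with upper-quartile scaling and to 0.0396 with the replicate block. Longest transcripts kept 5 of 9 ranks. Spearman correlation kept 3 of the 5 genes most like Alx1, and taking off group means kept 0.

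Leaving out single libraries gave, for genotype over both lines, 2 to 5 members, 4 to 10 listed genes higher and 1 to 1 lower; in line 1, 1 to 2, 2 to 6 and 0 to 0; in line 2, 1 to 6, 9 to 16 and 1 to 6. It gave 1 to 2 members, 0 to 2 higher and 3 to 6 lower for the interaction, 4 to 6, 15 to 21 and 19 to 23 between the lines in WT, and 2 to 3, 4 to 9 and 3 to 16 in RTF2-deficient cells. Members not called that changed sign so were Tbx15 in line 1 (-0.2302 to 0.1289), Prrx1 (-0.1396 to 0.0714) and Prrx2 (-0.6274 to 0.0509) in the interaction, with Alx1 untested there (-0.8732 to 0.2267), and Prrx2 between the RTF2-deficient lines (-0.4132 to 0.2705). With WT alone and the block, every call of a member was as in the main fit. Twist1 had an adjusted p of 0.0486 there, against 0.0745 with WT alone and no block. Over the whole layout it called Prrx2 (adjusted p = 0.0442) and lost Twist1 (0.0579) for genotype; the numbers did not pair the samples there.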

Other observations

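Library 1 of RTF2-deficient line 1 differed from its 2 sisters in several members. It held 51 counts of Alx1 against 110 and 108, and 120 counts of Alx4 against 338 and 353. For Prrx2 it held 3627 counts against 1969 and 2300, and for Tbx15 6914 counts against 5071 and 4512. In RTF2-deficient line 2 it was library 3 that had the most Alx1 (82 counts against 34 and 32) and the most Prrx2 (4145 against 1970 and 1900), with the least Alx4 (98 against 138 and 104).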
